A study of Phalaenopsis aphrodite with 54 samples.

Results

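PaAP2-5 (contig PATC133172), PabZIP-3 (PATC136849) and PaNAC-3 (PATC138298) are 3 transcription factor contigs of the moth orchid Phalaenopsis aphrodite, out of 43662 contigs that had a probe on a custom orchid array. They were chosen because the study names them as transcription factors expressed in floral organs other than the pollinia, and they were found by their contig identifiers. Each contig had 2 probes, so 6 of 67038 contig probes belong to them. Gene expression was measured in sepal, petal, lip, column, pedicel and pollinia of mature flowers, in whole mature flowers, in small (under 1 cm) and large (over 1 cm) buds, and in flowers 1, 3, 8 and 15 days after pollination of Sogo Yukidian 'V3', a tetraploid commercial hybrid (V3). Leaf, root, flower stalk, young inflorescence, inflorescence, bud and flower came from P. aphrodite, a diploid species (Pa). These 20 conditions had RNA amplified before labelling and 2 arrays each, apart from Pa leaf with 3. A further 13 arrays held leaf, root and flower of both plants labelled without amplification. No size was given for the Pa bud, and the labels do not say how many plants were pooled in a sample.

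The families differ in how they bind DNA. AP2/ERF proteins carry a plant-type DNA-binding domain and act in floral organ identity, growth and responses to ethylene and stress in Arabidopsis. Basic leucine zipper (bZIP) proteins bind DNA as dimers and act in hormone, stress and light responses. NAC proteins are a large plant family with members that act in organ boundaries and in senescence. In orchids the perianth consists of sepals, petals and the lip, the stamen and pistil are fused into the column, and pollen is packed into pollinia. Pollination is followed by wilting of the perianth and by growth of the ovary, which lies in the pedicel region. Which of these functions the 3 contigs have is not known from the data.

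Values are log2 of the processed intensity after quantile normalization and are compared only within a probe. Text values come from the brighter probe of each contig, and the other probe is given beside results where its direction, its call or its size differed. The amplified arrays reached a 75th percentile of the intensities of 2335 to 8107, and 71.2% to 80.7% of their spots were well above background, against 446.2 to 1077 and 73.7% to 82.7% on the unamplified arrays. All 6 probes were well above background on all 41 amplified arrays, and no spot was saturated. Arrays of a condition that differed by less than the spots within an array were counted as 1 replicate, which left 26 replicates for the 20 amplified conditions. Per the methods, the floral organ arrays repeat a pair of collections, but the labels do not tie arrays to a collection or to plants, and the column, pedicel and pollinia arrays were each counted once under this rule. With every array counted, the only organ call among those below to change was that of PaAP2-5 in petal minus sepal. No separate plants are stated for the arrays of a condition, so the spread behind the p-values may be technical. In the amplified fit it came only from the 6 conditions kept apart: sepal, petal, lip, Pa inflorescence, Pa young inflorescence and Pa bud. The 14 conditions counted once had no spread of their own, so tests of them borrowed the spread of those 6. In every tissue, fewer cells of a type and less RNA per cell cannot be told apart. Ubiquitin (PATC150470) lay between 15.34 and 16.61 in the 20 conditions and actin (PATC135993) between 12.51 and 13.32. Floral MADS-box contigs that the study had picked on these same samples are no independent check of the organ labels. Among them, PaAGL6-1 was highest in the lip (16.12) and PaAG-2 in the column (16.33). PaMdS-1 was highest in the pollinia (15.61, against 4.32, the floor, in the other organs).

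The 3 contigs followed different courses over the 20 amplified conditions. PaAP2-5 spanned 5.20 on the log2 scale, from petal (15.14) and sepal (14.78) at the top to column (10.01) and small V3 bud (9.94) at the bottom. PabZIP-3 spanned 6.99, with flowers 3 days after pollination (16.17) and Pa root (15.83) at the top and small V3 bud (9.84) and pedicel (9.18) at the bottom. PaNAC-3 spanned 10.08, with flowers 8 days and 1 day after pollination at the top (17.05 and 17.01) and Pa leaf (7.47) and Pa root (6.97) at the bottom. In this order, the arrays of neighbouring conditions overlapped in 8 of 19 neighbour pairs for PaAP2-5, such as pedicel and lip or Pa flower and Pa leaf. They overlapped in 1 of 19 for PabZIP-3, large V3 bud and Pa leaf, and in 1 of 19 for PaNAC-3, days 8 and 1. Many of the other neighbours differed by less than 0.40, which is close to the standard error of the fit for PaNAC-3 (0.39 between conditions of 1 replicate). As a description over the 20 conditions, which share arrays, the profiles correlated at r = 0.32 for PaAP2-5 with PabZIP-3, 0.21 for PaAP2-5 with PaNAC-3 and 0.44 for PabZIP-3 with PaNAC-3. Probes of the same contig correlated at 1, 0.999 and 0.991.

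**Figure D1:**
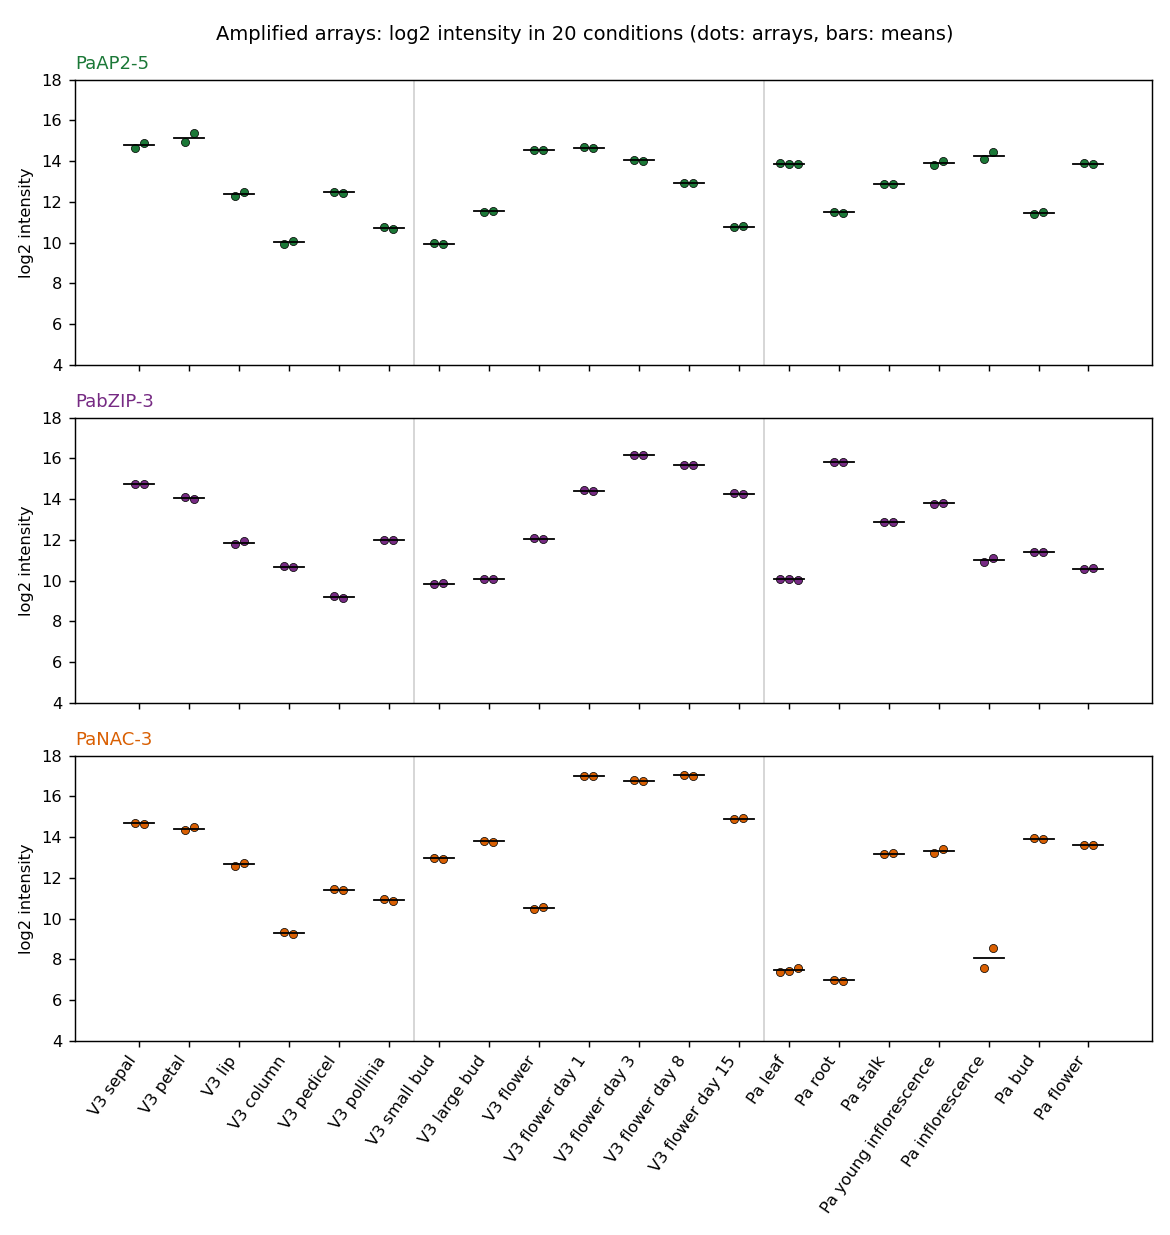
Log2 intensity of PaAP2-5, PabZIP-3 and PaNAC-3 (panels from top to bottom, y axis) in the 20 amplified conditions (x axis), with 1 dot per array and a bar at the mean. PaNAC-3 ranges from 6.97 in Pa root to 17.05 in flowers 8 days after pollination, and PaAP2-5 falls in flowers from day 1 (14.67) to day 15 (10.78).

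Mature V3 floral organs differed for all 3 contigs, and sepal and petal were the highest organs each time. PaAP2-5 measured 14.67 and 14.90 on the sepal arrays, 14.93 and 15.36 in petal, 12.31 and 12.50 in lip, 12.48 and 12.44 in pedicel, and 9.92 and 10.10 in column. PabZIP-3 measured 14.75 and 14.74 in sepal, 14.09 and 14.02 in petal, 11.81 and 11.92 in lip, 10.70 and 10.66 in column, and 9.23 and 9.14 in pedicel. PaNAC-3 measured 14.70 and 14.67 in sepal, 14.35 and 14.48 in petal, 12.58 and 12.75 in lip, 11.45 and 11.39 in pedicel, and 9.34 and 9.24 in column. The lowest of these organs was the column for PaAP2-5 and PaNAC-3 and the pedicel for PabZIP-3. Across the 5 organs the means spanned 5.13 for PaAP2-5 (limma F-test, adjusted p = 2.66e-06), 5.56 for PabZIP-3 (adjusted p = 5.68e-08) and 5.40 for PaNAC-3 (adjusted p = 2.28e-05). The same test called 82.1% of all probes, so 3 of 3 is not a result about these contigs.

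Within the perianth, the lip was lower than sepal and petal for 3 of 3 contigs, while 27.4% of all probes were called lower there. The fall was 5.89-fold for PaAP2-5 (log2 difference -2.56, SE 0.15, limma adjusted p = 7.61e-06), 5.80-fold for PabZIP-3 (-2.54, SE 0.07, adjusted p = 2.03e-07) and 3.70-fold for PaNAC-3 (-1.89, SE 0.24, adjusted p = 0.000407). The arrays came from 2 scan batches, and within them the difference was -2.49 and -2.63 for PaAP2-5, -2.61 and -2.46 for PabZIP-3, and -1.94 and -1.82 for PaNAC-3. Petal and sepal were close. PabZIP-3 was lower in petal than in sepal by 0.69 (SE 0.08, adjusted p = 0.000412, with 29.8% of probes called lower). PaAP2-5 differed by 0.36 (SE 0.17, adjusted p = 0.111), a value that rose to 0.69 (adjusted p = 0.0221) with scaling to the 75th percentile. Petal exceeded sepal for this contig in both scan batches (0.26 and 0.46), and with scan batch as a term the difference of 0.36 passed the test (adjusted p = 0.000365). PaNAC-3 differed by -0.27 (SE 0.27, adjusted p = 0.419).

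Column and pedicel separated PabZIP-3 from the others in direction. PaAP2-5 was 5.46-fold lower in column than in pedicel (log2 difference -2.45, SE 0.25, adjusted p = 0.000157), and PaNAC-3 was 4.40-fold lower (-2.14, SE 0.39, adjusted p = 0.0032). PabZIP-3 was 2.82-fold higher in column (1.50, SE 0.12, adjusted p = 4.14e-05). For comparison, 25% of all probes were called higher in column and 21.5% lower. Within the 2 scan batches that held both organs the difference was -2.56 and -2.34 for PaAP2-5, -2.11 and -2.15 for PaNAC-3, and 1.47 and 1.52 for PabZIP-3. Sepal and petal together exceeded column and pedicel by 3.73 for PaAP2-5 (adjusted p = 9.2e-07), 4.47 for PabZIP-3 (1.64e-08) and 4.20 for PaNAC-3 (5.06e-06), where 28.8% of probes were called higher. On the arrays of 1 scan batch that held all of these organs the values were 3.93, 4.41 and 4.18.

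On these arrays, after normalization, the pollinia were not the organ with the lowest level for any of the 3 contigs. Their pollinia arrays measured 10.76 and 10.68 for PaAP2-5, 12.01 and 12.01 for PabZIP-3, and 10.94 and 10.87 for PaNAC-3, all well above background. PaAP2-5 was lower in column than in pollinia by 0.71 and PaNAC-3 by 1.62, while their 4 other organs lay above the pollinia. For PabZIP-3, pedicel (-2.82) and column (-1.33) lay below the pollinia, lip lay at -0.15, and sepal (2.73) and petal (2.05) lay above. The mean of the 5 organs minus pollinia was 2.24 for PaAP2-5, 1.59 for PaNAC-3 and 0.10 for PabZIP-3, whose other probe gave -0.07. The contigs were picked for this contrast, so it is described here without a test; over all probes, 42.3% were called higher in the organs and 42% lower, and the pollinia were the lowest organ for 36.6% of 55574 probes. The signs were the same with the 75th percentile, normexp and a floor of 5, except that the lip minus pollinia value of PabZIP-3 became 0.01 with the 75th percentile. As intensity before scaling, PaAP2-5 measured 536 and 479 in pollinia against 606 and 625 in column, so this order rested on the scaling. PabZIP-3 and PaNAC-3 were lower in column than in pollinia before scaling too. In the same organs, 2 other transcription factor contigs named by the study, PaMYB-4 (PATC150065) and PabHLH-1 (PATC135043), lay at the floor of 4.32 in pollinia and between 13.81 and 16.91 elsewhere. Relative to pollinia and after normalization, sepal and petal were thus higher for all 3 contigs, whereas column was lower for all 3 and pedicel for PabZIP-3. The study's description of these contigs refers to quantitative PCR relative to ubiquitin or actin, another measure than array intensity. For PaAP2-5 it also names sepal and petal as the whorls of expression.

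**Figure D2:**
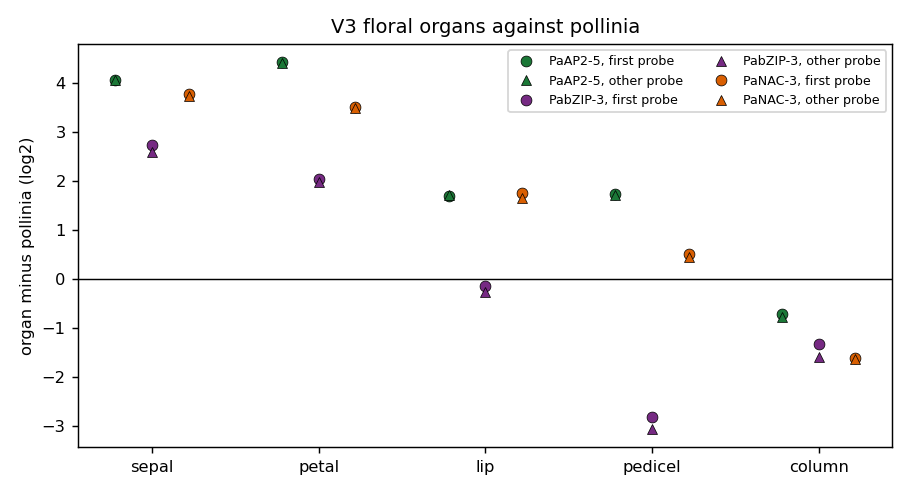
Log2 difference of each V3 organ from pollinia (y axis) for 5 organs (x axis), with circles for the brighter probe and triangles for the other probe of each contig. Column lies below 0 for all 3 contigs (-0.71, -1.33 and -1.62), and pedicel lies at -2.82 for PabZIP-3 but above 0 for the others.

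Among the vegetative and stem tissues of P. aphrodite, each contig had a different top tissue. PaAP2-5 measured 13.89, 13.86 and 13.87 in leaf, 11.50 and 11.46 in root, and 12.90 and 12.90 in stalk. PabZIP-3 measured 10.08, 10.08 and 10.05 in leaf, 15.83 and 15.83 in root, and 12.89 and 12.88 in stalk. PaNAC-3 measured 7.39, 7.44 and 7.56 in leaf, 7.0 and 6.94 in root, and 13.17 and 13.20 in stalk. Leaf was thus the highest of the 3 tissues for PaAP2-5, root for PabZIP-3 and stalk for PaNAC-3. Root minus leaf was -2.39 for PaAP2-5 (SE 0.25, limma adjusted p = 0.000106) and 5.76 for PabZIP-3 (SE 0.12, adjusted p = 2.71e-08), a rise of 54.3-fold. It was -0.50 for PaNAC-3 (SE 0.39, adjusted p = 0.297), and 0.27 (adjusted p = 0.527) with the 75th percentile. Of all probes, 29.5% were called higher in root and 31.2% lower. Stalk minus leaf was -0.97 for PaAP2-5 (adjusted p = 0.00975), 2.82 for PabZIP-3 (adjusted p = 8.62e-07) and 5.72 for PaNAC-3 (SE 0.39, adjusted p = 1.07e-05), which is 52.6-fold, against 29.2% of probes called higher and 37% lower. Leaf, root and stalk were scanned in different batches, so batch and tissue cannot be told apart.

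Flowers of P. aphrodite lay above both leaf and root for PaNAC-3, between them for PabZIP-3, and level with leaf for PaAP2-5. PaAP2-5 measured 13.90 and 13.86 in Pa flower, among the leaf arrays and above root. PabZIP-3 measured 10.57 and 10.61, close to leaf and far below root. PaNAC-3 measured 13.64 and 13.64, above every leaf and root array. Against the mean of leaf and root, flowers were higher by 1.21 for PaAP2-5 (adjusted p = 0.00161) and by 6.42 for PaNAC-3 (SE 0.33, adjusted p = 1.86e-06), which is 85.8-fold. They were lower by 2.36 on the log2 scale for PabZIP-3 (adjusted p = 6.44e-07, log2 difference -2.36). Of all probes, 33.2% were called higher and 32.9% lower. Flowers, too, lay in another scan batch than leaf and root.

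Through the inflorescence of P. aphrodite, PaNAC-3 showed the widest differences of the 3 contigs. PaNAC-3 measured 7.57 and 8.55 in inflorescence, 13.21 and 13.41 in young inflorescence, and 13.94 and 13.92 in bud. Its other probe gave 9.22 and 9.66 in inflorescence, where the probes of this contig differed by 1.38, more than in any other condition. PabZIP-3 measured 10.89 and 11.13 in inflorescence, 13.78 and 13.83 in young inflorescence, and 11.39 and 11.42 in bud. PaAP2-5 measured 14.12 and 14.43 in inflorescence, 13.81 and 14.00 in young inflorescence, and 11.40 and 11.52 in bud. The inflorescence was the low stage for PaNAC-3 and the high stage for PaAP2-5, and the young inflorescence was the high stage for PabZIP-3.

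Young inflorescence exceeded inflorescence by 5.25 for PaNAC-3 (SE 0.27, 38.1-fold, limma adjusted p = 6.06e-06, 4.41 by the other probe) and by 2.80 for PabZIP-3 (SE 0.08, 6.95-fold, adjusted p = 4.12e-07). For PaAP2-5 the difference was -0.37 (SE 0.17, adjusted p = 0.114), with -0.31 and -0.43 in the scan batches, and it passed with scan batch as a term (-0.37, adjusted p = 0.000339). Of all probes, 25% were called higher in young inflorescence and 27.1% lower. Bud minus inflorescence was 5.87 for PaNAC-3 (SE 0.27, 58.5-fold, adjusted p = 9.24e-07, 4.26 by the other probe), 0.40 for PabZIP-3 (adjusted p = 0.0034) and -2.82 for PaAP2-5 (SE 0.17, 7.05-fold, adjusted p = 4.24e-06). Here 34.1% of probes were called higher in bud and 37% lower. Within the 2 scan batches that held these tissues, bud minus inflorescence was 6.37 and 5.37 for PaNAC-3, 0.50 and 0.29 for PabZIP-3, and -2.72 and -2.91 for PaAP2-5, and young inflorescence minus inflorescence was 5.64 and 4.86 for PaNAC-3 and 2.89 and 2.70 for PabZIP-3.

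**Figure D3:**
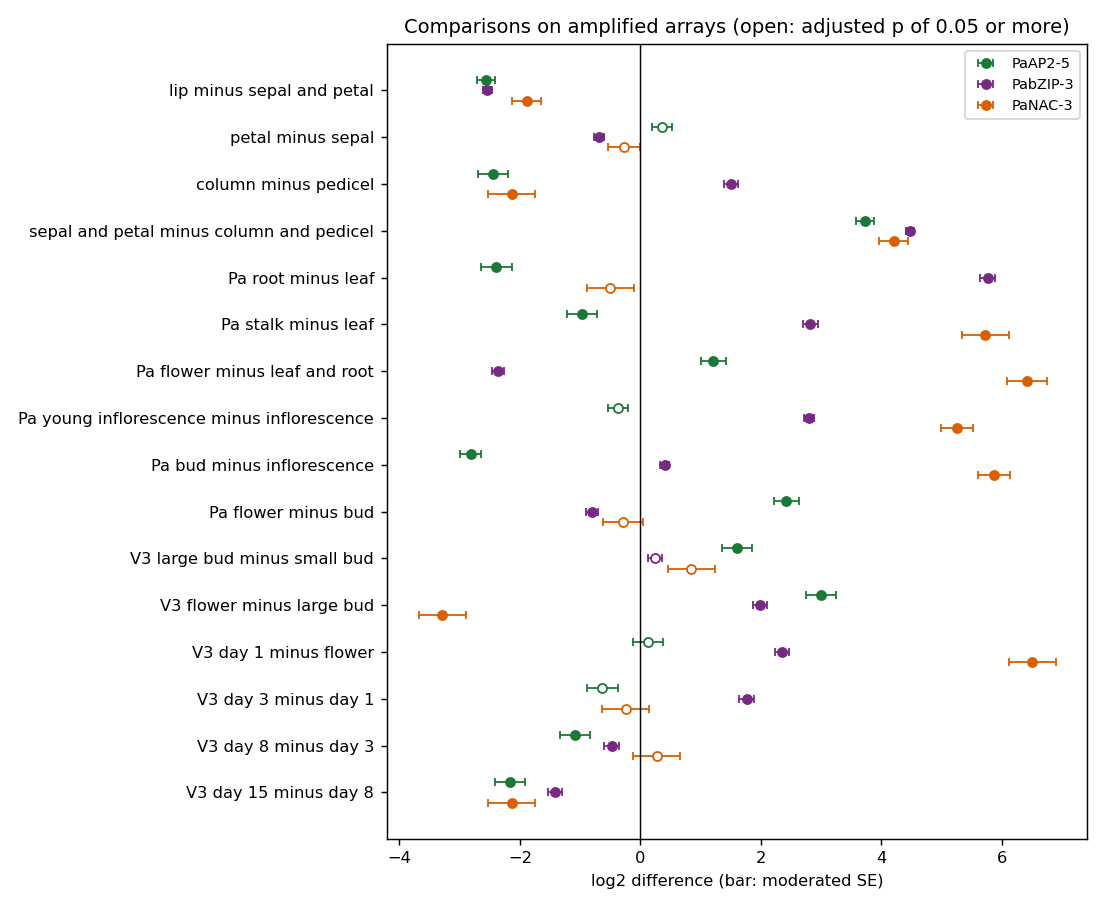
Log2 differences (x axis) of the brighter probe for 16 comparisons on amplified arrays (y axis), with moderated standard errors as bars and open symbols where the adjusted p was 0.05 or more. The lip values of all 3 contigs lie below 0, while Pa root minus leaf runs from -2.39 for PaAP2-5 to 5.76 for PabZIP-3.

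Flower opening differed between the contigs and, for 2 of them, between the plants. In V3, PaAP2-5 rose from small bud (9.97 and 9.92) to large bud (11.52 and 11.57) and to open flower (14.54 and 14.53). PabZIP-3 measured 9.81 and 9.87 in small bud, 10.07 and 10.08 in large bud, and 12.07 and 12.05 in flower. PaNAC-3 measured 12.97 and 12.95 in small bud, 13.81 and 13.78 in large bud, and 10.48 and 10.55 in flower. By its mean, the open flower was the highest of the 3 stages for PaAP2-5 and PabZIP-3 and the lowest for PaNAC-3. Large minus small bud was 1.60 for PaAP2-5 (SE 0.25, limma adjusted p = 0.00246), 0.24 for PabZIP-3 (adjusted p = 0.182) and 0.84 for PaNAC-3 (adjusted p = 0.159, and 0.0165 for its other probe at 0.85), with 14.1% of probes called higher and 14.9% lower. All 4 bud arrays lay on 1 slide.

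From large bud to flower, PaAP2-5 rose by 2.99 (SE 0.25, 7.96-fold, adjusted p = 2.65e-05) and PabZIP-3 by 1.98 (SE 0.12, 3.95-fold, adjusted p = 4.37e-06). PaNAC-3 fell by 3.29 (SE 0.39, 9.76-fold, adjusted p = 0.000188), and by 2.36 on its other probe. Of all probes, 34.8% were called higher in flower and 31% lower. In P. aphrodite, flower minus bud was 2.42 for PaAP2-5 (adjusted p = 3.98e-05), -0.81 for PabZIP-3 (adjusted p = 0.00025) and -0.29 for PaNAC-3 (SE 0.33, adjusted p = 0.463), with 36.7% of probes called higher and 31.2% lower. The difference between the V3 and Pa changes was tested as an interaction, a comparison added after the values had been seen. It was 2.80 for PabZIP-3 (SE 0.15, adjusted p = 9.81e-06), -3.0 for PaNAC-3 (SE 0.51, adjusted p = 0.00229) and 0.57 for PaAP2-5 (SE 0.32, adjusted p = 0.185), while 50% of all probes were called. The V3 buds and V3 flowers were scanned in different batches, the bud stages of the plants need not match, and neither can be told apart from the plant.

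The whole V3 flower did not lie within the range of its perianth organs for PaNAC-3. At 10.48 and 10.55 it was below every sepal, petal, lip, pedicel and pollinia array and above the column only. The distance to sepal was -4.17 and to pollinia -0.39, or -0.02 to pollinia with the 75th percentile. Its other probe, at 11.14 and 11.12 in the whole flower, lay above the pollinia (10.80 and 10.75) by 0.35, or 0.82 with the 75th percentile, and close to pedicel (-0.09), so the order of flower and pollinia depended on the probe. For PabZIP-3 the whole flower was 2.68 lower than sepal (log2 difference -2.68) and 0.20 above lip. For PaAP2-5, where the flower was 0.25 below sepal (-0.25) and 2.13 above lip, it lay between its organs. The whole flowers and the organs were scanned in different batches, whose part in this was not tested.

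After pollination, PaNAC-3 and PabZIP-3 were higher than in the unpollinated flower on every day sampled. PaAP2-5 lay below that flower on days 3, 8 and 15, of which only day 15 was tested against it. No unpollinated flowers kept for the same days were sampled, so pollination and flower age cannot be told apart. PaNAC-3 measured 10.48 and 10.55 in the open flower, 16.99 and 17.03 on day 1, 16.79 and 16.76 on day 3, 17.06 and 17.03 on day 8, and 14.89 and 14.92 on day 15. PabZIP-3 measured 12.07 and 12.05 in the open flower, 14.44 and 14.39 on day 1, 16.18 and 16.16 on day 3, 15.68 and 15.69 on day 8, and 14.28 and 14.25 on day 15. PaAP2-5 measured 14.54 and 14.53 in the open flower, 14.70 and 14.64 on day 1, 14.07 and 14.00 on day 3, 12.95 and 12.95 on day 8, and 10.74 and 10.81 on day 15. PaNAC-3 was thus near its highest level from day 1 to day 8, PabZIP-3 peaked on day 3, and PaAP2-5 had its lowest arrays on day 15. Over the 5 stages the means spanned 6.54 for PaNAC-3 (limma F-test, adjusted p = 1.3e-05, and 5.69 by its other probe), 4.11 for PabZIP-3 (5.46e-07) and 3.89 for PaAP2-5 (2.19e-05), and the test called 77.8% of all probes.

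The first day held most of the rise of PaNAC-3, 6.50 on the log2 scale (SE 0.39, 90.5-fold, limma adjusted p = 7.44e-06, and 5.59 or 48.2-fold by the other probe). PabZIP-3 rose by 2.35 (SE 0.12, 5.11-fold, adjusted p = 3.06e-06), and PaAP2-5 differed by 0.13 (SE 0.25, adjusted p = 0.674). The size of these rises depends on the open flower as the start. For PaNAC-3 the open flower (10.51) lay below V3 sepal (14.68), petal (14.42) and lip (12.66) and Pa flower (13.64), against 17.01 on day 1 and 14.91 on day 15. For PabZIP-3, sepal (14.74) lay above day 1 (14.41) and day 15 (14.27). Of all probes, 30.3% were called higher on day 1 and 31% lower. From day 1 to day 3 PabZIP-3 rose by a further 1.76 (adjusted p = 7.05e-05, 14% of probes called higher), whereas the differences were -0.63 for PaAP2-5 (adjusted p = 0.104) and -0.24 for PaNAC-3 (adjusted p = 0.702). Of the probes called in that step 53.5% were higher, or 67.4% with the 75th percentile. From day 3 to day 8 PaAP2-5 fell by 1.08 (adjusted p = 0.0137) and PabZIP-3 by 0.48 (adjusted p = 0.0178), with 16% of probes called lower, and PaNAC-3 differed by 0.27 (adjusted p = 0.664).

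From day 8 to day 15 all 3 contigs fell, where 13.9% of probes were called lower. The log2 difference was -2.17 for PaAP2-5 (SE 0.25, limma adjusted p = 0.000567), -1.42 for PabZIP-3 (SE 0.12, adjusted p = 0.000114) and -2.14 for PaNAC-3 (SE 0.39, adjusted p = 0.00512). Against the open flower, day 15 was lower by 13.6-fold for PaAP2-5 (-3.76, adjusted p = 7.82e-06), and higher by 4.61-fold for PabZIP-3 (2.20, adjusted p = 2.57e-06) and 21.0-fold for PaNAC-3 (4.39, adjusted p = 3.82e-05, and 3.48 by its other probe). On that interval 30.6% of probes were called higher and 36.1% lower, so that 45.9% of the calls were higher, or 56.8% with the 75th percentile. Day 8 minus day 3 was the same sign in each of the 2 scan batches that held both days (-1.12 and -1.05 for PaAP2-5, -0.50 and -0.47 for PabZIP-3), and day 15 minus day 8 in the batch they shared was -2.17, -1.42 and -2.12 in the order given. The open flower and day 1 were scanned in different batches from each other and from the later days, so the first change and the step to day 3 cannot be told apart from the batch.

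Pollen contigs moved in the same flowers. PaMdS-1, a MADS-box contig highest in pollinia, rose from 5.63 in the open flower to 8.08, 10.65 and 14.41 on days 1, 3 and 15, and PaMdP-1 from 10.92 to 11.18, 12.30 and 12.88. PaPI-1, a floral organ identity contig, was 16.12 in the open flower and 14.45, 13.93 and 14.41 on days 1, 3 and 15. Other contigs of broad floral expression went the other way on days 1 and 3. From the open flower to days 1, 3 and 15, PaAP3-2 went from 11.52 to 12.81, 14.15 and 12.31. PaSEP-1 went from 14.63 to 14.87, 15.04 and 14.99. PaSEP-2 went from 15.31 to 16.20, 16.20 and 14.87, and PaSEP-3 from 14.34 to 14.59, 14.68 and 14.33. The pollinia themselves measured 10.90 for PaNAC-3 and 12.01 for PabZIP-3, below the levels of both contigs on every day after pollination. The part of pollen or of a changed mix of tissues in these values was not tested.

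**Figure D4:**
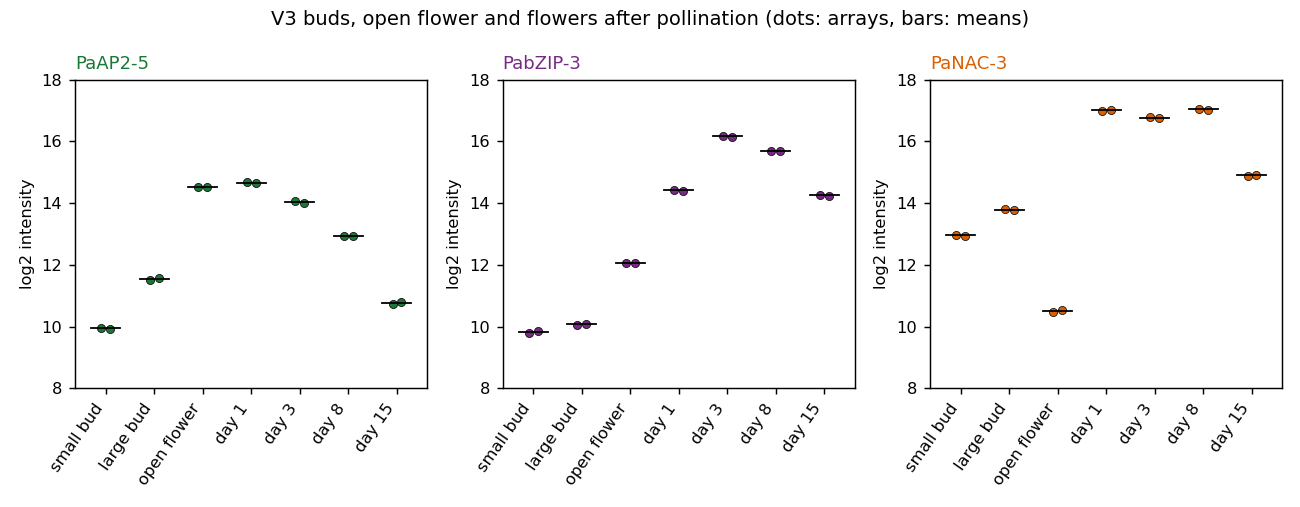
Log2 intensity (y axis) of each contig in V3 small and large buds, the open flower and flowers 1, 3, 8 and 15 days after pollination (x axis), with 1 dot per array and bars at the means. PaNAC-3 goes from 13.80 in large bud to 10.51 in the open flower and 17.01 on day 1, while PaAP2-5 ends at 10.78 on day 15.

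The unamplified arrays measured leaf, root and flower of both plants on another scale, normalized by themselves. PaAP2-5 measured 11.84 and 11.83 in V3 leaf, 11.24, 11.34 and 11.28 in Pa leaf, 10.86 and 10.95 in V3 root, 9.52 and 9.62 in Pa root, 12.72 and 12.53 in V3 flower, and 11.95 and 11.87 in Pa flower. PabZIP-3 measured 7.33 and 7.06 in V3 leaf, 5.21, 5.39 and 5.37 in Pa leaf, 11.60 and 11.43 in V3 root, 11.61 and 11.67 in Pa root, 7.71 and 8.01 in V3 flower, and 5.69 and 5.94 in Pa flower. PaNAC-3 measured 6.79 and 6.38 in V3 flower and 9.59 and 9.70 in Pa flower, and at most 5.12 in any leaf or root (6.09 by the other probe, in V3 root). PaAP2-5 was higher in V3 than in Pa in each tissue, PabZIP-3 in leaf and flower, and PaNAC-3 was lower in V3 flower than in Pa flower. In root the PabZIP-3 probes differed, since the other probe was higher in V3 (11.99 and 12.29 against 11.47 and 11.65). The brighter PaNAC-3 probe was well above background on 7 of 13 arrays, and on none of the Pa leaf and Pa root arrays. On this probe Pa flower measured 35.4-fold above Pa leaf and 39.9-fold above Pa root. Bounds were sought by setting each dim array at the higher of its own value and the lowest signal well above background. That step raised neither the leaf nor the root mean, so these folds are the measured ones and not lower limits. The other PaNAC-3 probe was well above background on 9 of 13 arrays, among them both root pairs and 1 of 3 Pa leaf arrays, and Pa flower exceeded Pa root by 5.89 (59.4-fold) and Pa leaf by 6.47 on it.

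In a fit that added plant and tissue, the difference of the plants did not pass the test for any of the 3 contigs. This fit, which also gave the tissue tests below, had 3 residual degrees of freedom. Its SE therefore holds differences of the plants between tissues beside the spread of the V3 root pair. V3 root entered as 2 replicates and each other condition as 1, so root weighed more. V3 minus Pa was 0.91 for PaAP2-5 (SE 0.25, limma adjusted p = 0.167), 1.12 for PabZIP-3 (SE 0.43, adjusted p = 0.322, and 2.02 with adjusted p = 0.13 by its other probe) and -0.64 for PaNAC-3 (SE 0.63, adjusted p = 0.707), and the test called 0.927% of all probes with 7 replicates. With every array counted as a replicate, PaAP2-5 (0.85, adjusted p = 0.000664) and PabZIP-3 (1.30, adjusted p = 0.00715) passed it. By tissue, V3 minus Pa was 0.55 in leaf, 1.33 in root and 0.71 in flower for PaAP2-5. It was 1.87, -0.13 and 2.04 for PabZIP-3 (2.79, 0.58 and 3.15 by its other probe), and -0.01, 0.69 and -3.06 for PaNAC-3, whose leaf arrays lay between 4.32 and 4.66, near the floor. The limma test of whether the plants differed between tissues called 0 of 57850 probes, with 3940 at an unadjusted p under 0.05, and had 1 residual degree of freedom. In the amplified arrays, where V3 flower and Pa flower came from different scan batches, V3 minus Pa in flower was 0.66 for PaAP2-5, 1.47 for PabZIP-3 and -3.13 for PaNAC-3, the same signs as the 0.71, 2.04 and -3.06 of the unamplified flowers, which shared a batch. The sizes were further apart by the other probes, at 1.21 amplified and 3.15 unamplified for PabZIP-3 and -2.29 and -3.12 for PaNAC-3. Probes were designed on P. aphrodite sequence, and the part of sequence differences in V3 was not tested.

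Tissue differences on the unamplified arrays were largest in root for PabZIP-3. Root minus leaf was 5.11 for PabZIP-3 (SE 0.51, 34.5-fold, limma adjusted p = 0.000798), -1.25 for PaAP2-5 (SE 0.29, adjusted p = 0.027, and 0.0822 for its other probe) and 0.39 for PaNAC-3 (adjusted p = 0.764, and 1.01 with adjusted p = 0.426 by its other probe), where 9.19% of probes were called higher and 7.31% lower. Flower minus leaf was 3.62 for PaNAC-3 (SE 0.81, adjusted p = 0.0268, and 4.87 by its other probe), 0.71 for PaAP2-5 (adjusted p = 0.205) and 0.58 for PabZIP-3 (adjusted p = 0.573), where 4.9% of probes were called higher. The PaNAC-3 value did not pass without 1 of the V3 root arrays, whose pair gave the only replicate spread within a condition (adjusted p = 0.0609 and 0.0749). Within P. aphrodite, root minus leaf of PabZIP-3 was 5.76 with amplification and 6.32 without. Flower minus leaf of PaNAC-3 was 6.17 and 5.14, and 6.26 and 6.47 by its other probe. For PaAP2-5 these were -2.39 and -1.71 in root and 0.01 and 0.63 in flower. Leaf and flower shared a scan batch, and root was scanned in another.

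**Figure D5:**
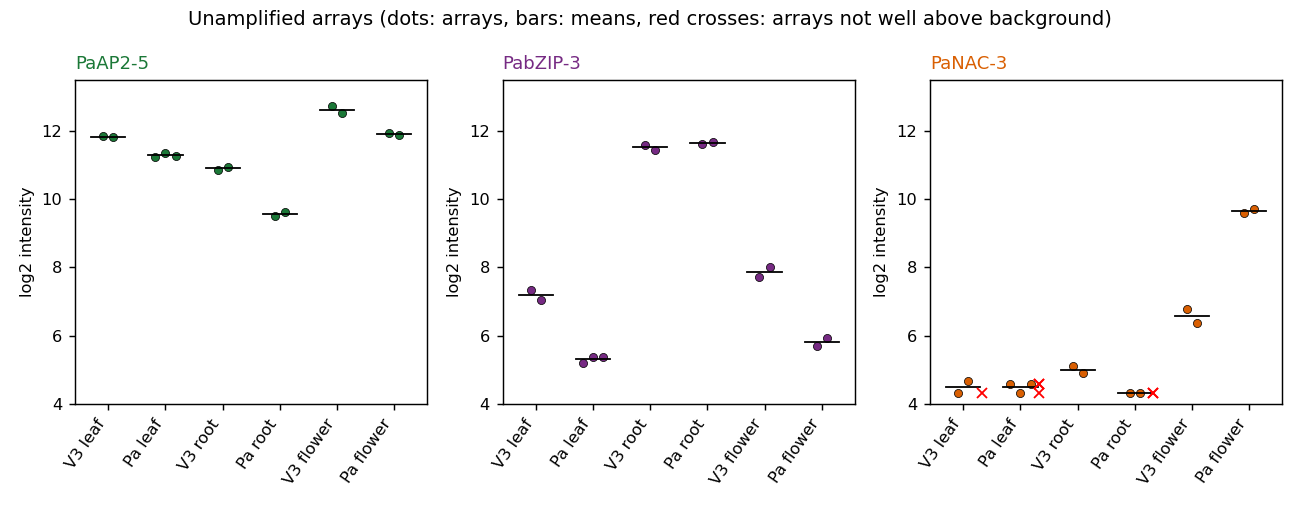
Log2 intensity (y axis) of each contig in leaf, root and flower of V3 and P. aphrodite on the unamplified arrays (x axis), with 1 dot per array, bars at the means and red crosses beside arrays where the probe was not well above background. PaNAC-3 measures 9.64 in Pa flower and 6.59 in V3 flower, and PabZIP-3 lies at 11.51 and 11.64 in the roots.

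The contigs with the most similar profiles over the 20 amplified conditions were found by Pearson's r among 35693 contigs. For PaAP2-5 they were PATC143701 (r = 0.878), PATC155651 (0.874) and PATC220780 (0.865), all of them high in sepal, in open flower and on day 1, and low in column, Pa root and Pa bud. For PabZIP-3 they were PATC093003 (0.872), PATC116059 (0.863) and PATC130385 (0.854), which were highest on day 3 after pollination, at 10.22, 10.39 and 12.14. Unlike PabZIP-3, PATC093003 and PATC116059 lay at the floor of 4.32 in column, pedicel, open flower, large V3 bud and Pa bud. PATC130385 lay there in column and pedicel. For PaNAC-3 they were PATC216273 (0.917), PATC043385 (0.836) and PATC125812 (0.818). PATC216273 also had its lowest levels in Pa root (5.35) and Pa leaf (5.79) and its highest on days 8 and 1 (14.09 and 14.03), and it was first by Spearman's rho as well (0.968). PATC093003 and PATC116059 ranked 127 and 85 by Spearman's rho.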

How the data were processed

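Scanner files of 54 arrays, on 16 slides in 8 scan batches, were deposited with the processed intensity of each spot from Feature Extraction 10.7.1.1, which corrects background within an array. The authors also deposited a table of log2 values, which equal the log2 intensity with a floor of 20 minus a constant per array (largest departure 2.71e-06, constant within 0.00172 of the 75th percentile). Its column medians lay from -3.14 to -1.72, and it was used as an alternative because the methods name quantile normalization. Here intensities under 20 were set to 20, spots marked as outliers were left out, both spots of a probe were averaged, and log2 values were quantile normalized among the 41 amplified and among the 13 unamplified arrays separately. Arrays of a condition were averaged as 1 replicate where their median difference was no more than that between spots (14 of 20 and 5 of 6 conditions).

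For each comparison, limma 3.58.1 (R 4.3.3) was run on all probes with signal well above background throughout 1 or more of the conditions it used, with Benjamini-Hochberg adjustment and a threshold of 0.05. Unamplified arrays were fitted with genotype and tissue. Named are the 3 contigs, other contigs named by the study, marker contigs and the 3 contigs most like each. Members and lists were chosen with earlier results of these data known. The fits were tested on simulated data. Alternatives were the 75th percentile, the deposited table, normexp (offset 50), a floor of 5, other filters, every array as a replicate, scan batch, slide, the conditions compared alone, contig means and each array left out. The other probe and the values within scan batches were added after seeing the data.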

Additional observations from a re-analysis of the deposited data

Results flagged for a closer look

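The change from bud to open flower differed between V3 and P. aphrodite for PabZIP-3 and PaNAC-3, by the interaction test in limma. For PabZIP-3 the V3 change exceeded the Pa change by 2.80 on the log2 scale (SE 0.15, adjusted p = 9.81e-06), as it was 1.98 in V3 and -0.81 in P. aphrodite. For PaNAC-3 the difference was -3.0 (SE 0.51, adjusted p = 0.00229), from -3.29 in V3 and -0.29 in P. aphrodite, and -2.09 (adjusted p = 0.000525) by its other probe. This comparison was added after the values had been seen, and the V3 flower is common to both differences. The test called 50% of all probes, so a call is not particular to these contigs. The bud of P. aphrodite had no stated size, so the stages may not match, and the V3 buds, V3 flowers and Pa flowers came from different scan batches. The part of these was not tested.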

How the results depend on the processing

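Of 782 values from 14 alternative settings, 734 kept their side of the threshold, as did 442 of 447 with 1 array left out. No difference that passed changed sign, but F-test spans cannot and some settings alter only the test. Differences that passed in neither fit changed sign for PaNAC-3 in Pa root minus leaf (from -0.50 to 0.27 with the 75th percentile or the deposited table) and, within the scan batch that held root, for PaNAC-3 (0.69) and PabZIP-3 (-0.13) in V3 minus Pa. With every array as a replicate, these passed the threshold: PaAP2-5 in petal minus sepal (0.36), Pa young inflorescence minus inflorescence (-0.37), day 3 minus day 1 (-0.63), V3 minus Pa (0.85), unamplified flower minus leaf (0.68) and genotype by tissue (0.78), PaNAC-3 in Pa root minus leaf (-0.50), large minus small bud (0.84) and genotype by tissue (-3.05), and PabZIP-3 in large minus small bud (0.24), V3 minus Pa (1.30) and genotype by tissue (-2.0). With slide as a random block the same ones passed, in that order at 0.31, -0.37, -0.65, 0.83, 0.68, 0.79, -0.50, 0.84, -3.06, 0.24, 1.33 and -2.04. In a fit of only the conditions compared, PaNAC-3 passed in Pa root minus leaf (-0.50), Pa flower minus bud (-0.29), large minus small bud (0.84), day 3 minus day 1 (-0.24) and day 8 minus day 3 (0.27), PabZIP-3 in large minus small bud (0.24), and PaAP2-5 in day 1 minus flower (0.13) and day 3 minus day 1 (-0.63). With scan batch as a term, which could be fitted only for conditions in linked batches, PaAP2-5 passed in petal minus sepal (0.36) and young inflorescence minus inflorescence (-0.37).

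PaAP2-5 in petal minus sepal also passed with the 75th percentile (0.69) and the deposited table (0.68), and ranged from 0.15 to 0.57 with 1 array left out, passing without the first petal array. Genotype by tissue of PaNAC-3 passed with the 75th percentile and the deposited table (-2.97 each), normexp (-2.48), a floor of 5 (-3.76) and a raw signal of 500 (-3.05). V3 minus Pa within the scan batches, where every array was a replicate, passed for PaAP2-5 in leaf and flower (0.62) and in root (1.33), and for PabZIP-3 in leaf and flower (1.95). Unamplified flower minus leaf of PaNAC-3 did not pass with normexp (2.25, adjusted p = 0.0527) or with no filter (3.62, adjusted p = 0.146), and ranged from 3.52 to 3.72 with 1 array left out. Unamplified root minus leaf of PaAP2-5 did not pass by its other probe (-1.10), and ranged from -1.34 to -1.23, not passing without either V3 root array. Large minus small bud of PaNAC-3 passed by its other probe (0.85). Otherwise the cause was not tested.

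The 75th percentile moved the median difference of all probes from -0.02 to 0.13 in Pa root minus leaf, from 0.10 to -0.09 in Pa flower minus bud, from 0.07 to -0.13 in V3 flower minus large bud and from -0.12 to 0.11 in day 15 minus flower.

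Counts of probes called depended on how arrays were counted. V3 minus Pa called 536 probes, 12727 with every array, 14057 with slide as a block, 249 at a raw signal of 500, 18 with no filter, and 11886 and 4019 within the scan batches. Genotype by tissue called 0, and 1507 with the 75th percentile or the deposited table, 4782 with normexp, 2517 with a floor of 5, 1110 at a raw signal of 500, 22211 with every array and 25038 with slide as a block. Unamplified flower minus leaf called 7531, 26350 with every array, 27377 with slide and 4913 with no filter, and root minus leaf 9545, 28334 with every array and 25655 with slide. On amplified arrays, under the alternatives that count every array, the count rose from 24837 to between 40068 and 43165 in column minus pedicel, from 15331 to between 31615 and 42799 in large minus small bud, from 13498 to between 30984 and 40414 in day 3 minus day 1, from 16858 to between 33786 and 40611 in day 8 minus day 3, from 16532 to between 34392 and 41601 in day 15 minus day 8, and from 31016 to 47302 in Pa root minus leaf. Means per contig, which test fewer features, called 238 in V3 minus Pa. Precision is limited by how few arrays each condition has, and the brighter PaNAC-3 probe was not well above background in Pa leaf and Pa root without amplification. No paired analysis was possible because the labels give no replicate numbers that groups share, though scan batch was fitted as a term, as above.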
